A study of Mus musculus with 26 samples.

Results

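RNA recovered with an antibody to IMP2 from the brown fat of wild-type mice was compared directly with RNA recovered with the same antibody from knockout mice. The comparison used the 4 libraries that the labels give for these groups, libraries 21 and 22 from wild-type mice and libraries 23 and 24 from IMP2 -/- mice, of 26 samples in the series. Of the 26 samples, 12 are brown fat libraries and 14 are from liver, which was not analysed here. The wild-type (Imp2+/+) and knockout mice were littermates from matings of Imp2 +/- parents on a C57Bl/6J background. The brown fat donors were males aged 10 weeks that ate normal chow and spent a night at 4 °C before they were killed. Both groups therefore shared sex, age, diet and cold exposure, and differed by genotype. Whether the 2 libraries of each genotype stand for separate animals, pools or repeat preparations is not in the labels. The p-values therefore measure library-to-library spread, which may be technical.

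IMP2, the product of Igf2bp2, binds selected mRNAs and affects where they go in the cell, how long they last and how they are translated. In RNA immunoprecipitation, an antibody pulls the protein down from a tissue lysate together with the RNA bound to it, and the recovered RNA is sequenced. Knockout tissue lacks the antibody's target, so RNA recovered from it is background, and a wild-type to knockout difference is the usual control for that background. Brown adipose tissue burns fuel to make heat through UCP1, a mitochondrial carrier that lets protons bypass ATP synthase. The direct comparison leaves tissue mRNA levels uncorrected, so the ratio of total RNA between the same genotypes is given beside each result.

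Every value is a read count per transcript. The table that holds the knockout libraries lists 1579 transcripts, which gave 1189 named genes with 1 transcript kept per symbol, the one with most counts. Summed over these genes, wild-type immunoprecipitates held 1110619 and 780333 counts, and knockout immunoprecipitates held 2382815 and 1890095. The 4 total RNA libraries of the same table held 1424024 to 4916160. Levels are CPM, the count per 1000000 counts of a library's listed genes, after TMM scaling (trimmed mean of M-values), and ratios are log2 of wild type over knockout with the standard error of the fit. Igf2bp2 is not among the listed genes, so the table holds no check of the knockout label, and Igf2bp1 and Igf2bp3 are not listed either. The brown adipocyte genes Ucp1, Cidea and Dio2 are listed, and Adipoq is not.

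The listed values have a lower edge, and how transcripts were picked for listing is not stated. Every listed transcript has more than 100 counts in every library except knockout immunoprecipitate 23, where 12 transcripts have fewer. The lowest count corresponded to 129.8 CPM in wild-type immunoprecipitate 22, the shallowest, but to 13.4 and 52.1 CPM in the knockout ones. No listed gene was below 129.8 CPM in library 22, and 82 genes had a knockout mean under this level, called the listing level of library 22 here. For such a gene the value in library 22 is above the knockout mean by construction. Of these, 76 had a ratio above 0, with a median log2 ratio of 0.34, against 539 of the other 1107 genes, with a median of -0.01. The listed genes also have a sharp lower edge in the log2 ratio in immunoprecipitates minus that in total RNA. This difference ran from -0.30 to 0.81, and 69 genes lay between -0.30 and -0.25. A listed gene with an immunoprecipitate ratio below -0.30 therefore had a total RNA ratio below 0 as well. Gene list medians come from listed members only. The edge limits how far such a member's ratio can be lower in immunoprecipitates than in total RNA.

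No gene passed the test between wild-type and knockout immunoprecipitates. With edgeR's quasi-likelihood test and Benjamini-Hochberg adjustment over 1189 genes, 0.0% were called at an adjusted p under 0.05, and the smallest adjusted p was 0.129. At an unadjusted p under 0.05 the same test had 123 genes higher in wild type (10.3%) and 88 lower (7.4%). DESeq2 called 60 genes higher (5.05%) and 33 lower (2.78%), and limma-voom called 0. In 320 genes (26.9%) both wild-type libraries lay above both knockout libraries, and in 289 (24.3%) both lay below. Leaving out library 22 took the counts at an unadjusted p under 0.05 to 65 higher and 41 lower, and leaving out library 24 took them to 59 and 46. Scaling by the upper quartile gave 98 higher and 114 lower, and scaling by library size alone gave 101 and 118, so the direction with more genes changed with the scaling. Without the 82 genes under the listing level of library 22, an alternative chosen after seeing the data, the counts were 98 and 88.

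Differences between the genotypes were small for most genes. The log2 ratio had a median of 0.01 and was above 0 for 615 genes (51.7%), and 1068 genes lay within 0.5 of 0 in either direction. The median standard error was 0.16. Ratios ran from -1.08 for Rhou, a small GTPase, to 2.68 for the muscle sarcomere gene Tcap. Of the 10 genes above a log2 ratio of 1, 8 belonged to the skeletal muscle list, and the others were Pabpc4 and A930016O22Rik, a predicted gene named here after its values were seen. The 4 immunoprecipitates did not divide by genotype in their correlation across genes. Pearson's r of log2 CPM was 0.970 between the wild-type libraries 21 and 22 and 0.973 between the knockout libraries 23 and 24, against 0.934 to 0.971 between genotypes. These correlations describe 1189 genes that share libraries and are not independent replicates.

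**Figure D1:**
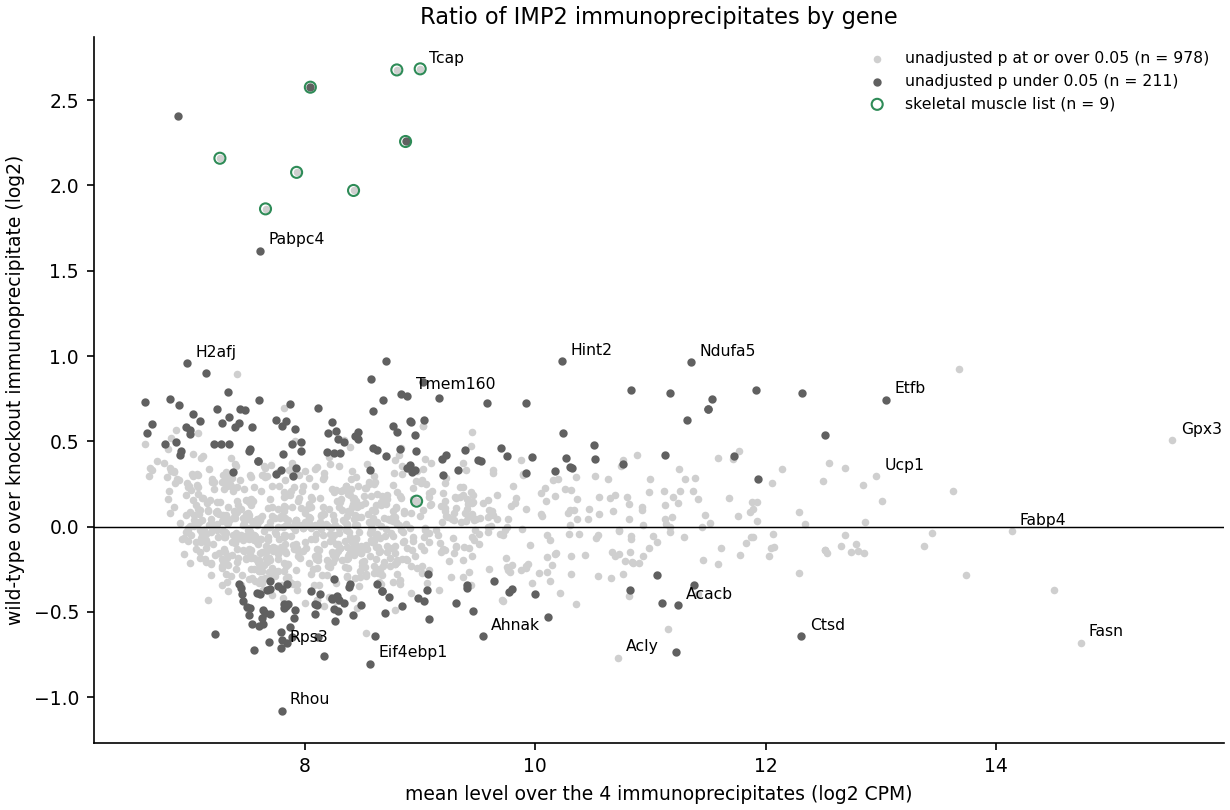
The log2 ratio of wild-type over knockout IMP2 immunoprecipitate (vertical axis) is plotted against the mean level of each of 1189 genes in log2 CPM (horizontal axis), with the genes at an unadjusted p under 0.05 as dark points (123 higher, 88 lower) and the 9 skeletal muscle genes ringed. Most points lie close to 0, and most of those above 1 are ringed.

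Among the genes with the smallest p and no overlap between groups, those higher in wild-type immunoprecipitates included H2afj, which encodes a variant of histone H2A, Hint2, a mitochondrial nucleotide hydrolase of the histidine triad family, and Ndufa5, a subunit of respiratory complex I. Their log2 ratios were close to 1. Further genes of this kind were Ap2s1, the small subunit of the clathrin adaptor AP-2, Tceb2, which encodes elongin B, and Exosc5, a subunit of the RNA exosome. The 12 genes named by this rule in the higher direction all had an adjusted p of 0.129 by edgeR and an adjusted p under 0.05 by DESeq2.

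H2afj (chromosome 6, 136808248 to 136810074 in GRCm38.p6, where RefSeq calls it H2aj) stood at 171 and 162 CPM in the wild-type immunoprecipitates and at 75.5 and 96.6 CPM in the knockout ones. The lower wild-type value was thus above the higher knockout value, for a log2 ratio of 0.96 ± 0.15. The knockout mean lies under the listing level of library 22. In total RNA, H2afj was at 316 and 278 CPM in wild type and at 260.1 and 269.6 CPM in knockout, for a log2 ratio of 0.17. Of the 4 listed histone genes, H2afj included, 2 were above 0, and the list had a median log2 ratio of -0.05 (0.091 without library 22, 0.098 without library 24) and a lowest ratio of -0.13.

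Hint2 (chromosome 4, 43654227 to 43656445) was at 1299.7 and 1897 CPM in wild-type and at 806 and 823 CPM in knockout immunoprecipitates, for a log2 ratio of 0.97 ± 0.18. The wild-type libraries differed from each other by more than the knockout libraries did, and both were above the knockout pair. Total RNA held 829 and 869 CPM in wild type and 812 and 671 CPM in knockout, a log2 ratio of 0.20. Hint1, a cytosolic paralog, was at 1367 and 1436 CPM against 1051 and 1069.8 CPM, for a log2 ratio of 0.40 ± 0.10, and its total RNA ratio was 0.04. Both listed members of the histidine triad family were thus higher in both wild-type immunoprecipitates, as were 26.9% of all genes.

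Ndufa5 (chromosome 6, 24518662 to 24527690) was at 2789 and 4146 CPM in wild-type and at 1932 and 1619.6 CPM in knockout immunoprecipitates, for a log2 ratio of 0.96 ± 0.20. Library 22 was the highest of the 4, and library 21 was still above both knockout libraries. In total RNA it was at 2543 and 2967 CPM in wild type and at 2494 and 2091 CPM in knockout, so that the nearest libraries of the genotypes were close, and the log2 ratio was 0.27.

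Ap2s1 (chromosome 7, 16738444 to 16749290) was at 972 and 941 CPM against 628 and 530.1 CPM, for a log2 ratio of 0.72 ± 0.14 beside 0.23 in total RNA. Tceb2 was at 415 and 568 CPM against 251 and 287 CPM, for a log2 ratio of 0.87 ± 0.18 beside 0.17 in total RNA. Tmem160, a mitochondrial membrane protein gene, was at 537 and 659 CPM against 361 and 341 CPM, for a log2 ratio of 0.77 ± 0.15 beside 0.11 in total RNA. In these 3 genes the log2 ratio was 0.49 to 0.69 larger in immunoprecipitates than in total RNA.

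Exosc5 was at 207 and 188 CPM against 132 and 120.4 CPM, with a log2 ratio of 0.64 beside 0.04 in total RNA, and its knockout mean lies under the listing level of library 22. H2-Ke2, also called Pfdn6, a subunit of the prefoldin chaperone, was at 216 and 271 CPM against 154 and 135 CPM, with a log2 ratio of 0.74 beside 0.10. Lypla2, an enzyme that removes palmitate from proteins, was at 566 and 458 CPM against 297 and 315 CPM, with a log2 ratio of 0.74 beside 0.29. In each of these the groups did not overlap in the immunoprecipitates.

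The remaining 3 of the 12 had similar ratios in total RNA. Cacybp, which encodes a ubiquitin ligase adaptor, was at 208 and 159 CPM in wild-type and 101.98 and 95.6 CPM in knockout immunoprecipitates, and at 248 and 191 CPM against 120.3 and 118 CPM in total RNA. Its log2 ratios were 0.90 and 0.89, and its knockout mean in immunoprecipitates also lies under the listing level of library 22. Cycs, cytochrome c, was at 492 and 661 CPM against 348 and 325 CPM, with a log2 ratio of 0.77 ± 0.17 beside 0.69 in total RNA. Cdk11b, a cyclin-dependent kinase linked to transcription and splicing, was at 212 and 217 CPM against 139 and 126 CPM, with a log2 ratio of 0.69 ± 0.13 beside 0.54. For none of the genes named here was the difference between the immunoprecipitate ratio and the total RNA ratio called. Over all 1189 genes, the smallest edgeR adjusted p of that difference was 0.999, with 29 genes at an unadjusted p under 0.05, all with the larger ratio in immunoprecipitates. That fit takes libraries as independent, but each immunoprecipitate correlated more with 1 total RNA library of its genotype (21 with 16, 22 with 17, 23 with 18 and 24 with 19, r of 0.939 to 0.943) than with the other (0.917 to 0.925). With this match, taken from the data and not from the labels, as a term in the fit, 0 genes were called and the smallest adjusted p was 0.126. At an unadjusted p under 0.05, 125 genes had the larger and 11 the smaller ratio in immunoprecipitates. In both fits the lower edge of the listing, at a difference of -0.30, limits how many genes can have the smaller ratio. The uneven counts are therefore not read as a result about recovery.

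Genes lower in wild-type than in knockout immunoprecipitates included Rps3, a protein of the small ribosomal subunit, Eif4ebp1, which encodes the translation repressor 4E-BP1 and is regulated by mTOR, and Ahnak, a very large scaffold protein. Lipid genes and Ctsd, a lysosomal protease gene, were also among them. In the 11 genes described here the immunoprecipitate ratio and the total RNA ratio were both below 0, which the lower edge of the listing fixes for ratios of this size. The edgeR adjusted p of these 11 genes ran from 0.129 to 0.152.

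Eif4ebp1 (chromosome 8, 27260327 to 27275656) was at 292 and 259.7 CPM in wild-type and at 435 and 528 CPM in knockout immunoprecipitates, for a log2 ratio of -0.80 ± 0.17. In total RNA it was at 338 and 274 CPM in wild type and at 459.9 and 521 CPM in knockout, for a log2 ratio of -0.68. Both knockout libraries were above both wild-type libraries in each kind of RNA. Rps3 (chromosome 7, 99477896 to 99483709) was at 174 and 163 CPM against 261 and 291 CPM, with a log2 ratio of -0.71 ± 0.15 beside -0.64 in total RNA. Ahnak (chromosome 19, 8989284 to 9076935) was at 659 and 504 CPM against 915 and 905 CPM, with a log2 ratio of -0.64 ± 0.14 beside -0.47. The groups did not overlap for either gene.

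Lipid genes in this direction included Acacb, the acetyl-CoA carboxylase that makes malonyl-CoA at mitochondria, at 1977 and 2089 CPM against 2649 and 2942 CPM (log2 ratio -0.46 beside -0.42 in total RNA). Ptdss2, a phosphatidylserine synthase, was at 175 and 169.7 CPM against 236 and 311 CPM (-0.66 beside -0.51). Gpihbp1, which carries lipoprotein lipase to the capillary lumen, was at 136 and 183 CPM against 240.3 and 265 CPM (-0.68 beside -0.71). These lipid genes had log2 ratios of like size in both kinds of RNA.

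Ctsd, the lysosomal protease cathepsin D, was at 4250.0 and 3694 CPM against 5513 and 6873 CPM, with a log2 ratio of -0.64 beside -0.67 in total RNA. Gyg, which encodes glycogenin, the primer of glycogen synthesis, was at 237 and 194 CPM against 325 and 351 CPM, with a ratio of -0.65 beside -0.41. The others were Abcb8, a mitochondrial transporter (-0.64), Mgat1, a glycosyltransferase of the Golgi (-0.58), and Pvrl2, a cell adhesion protein also called nectin-2 (-0.68). Their total RNA log2 ratios were -0.39, -0.37 and -0.50.

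**Figure D2:**
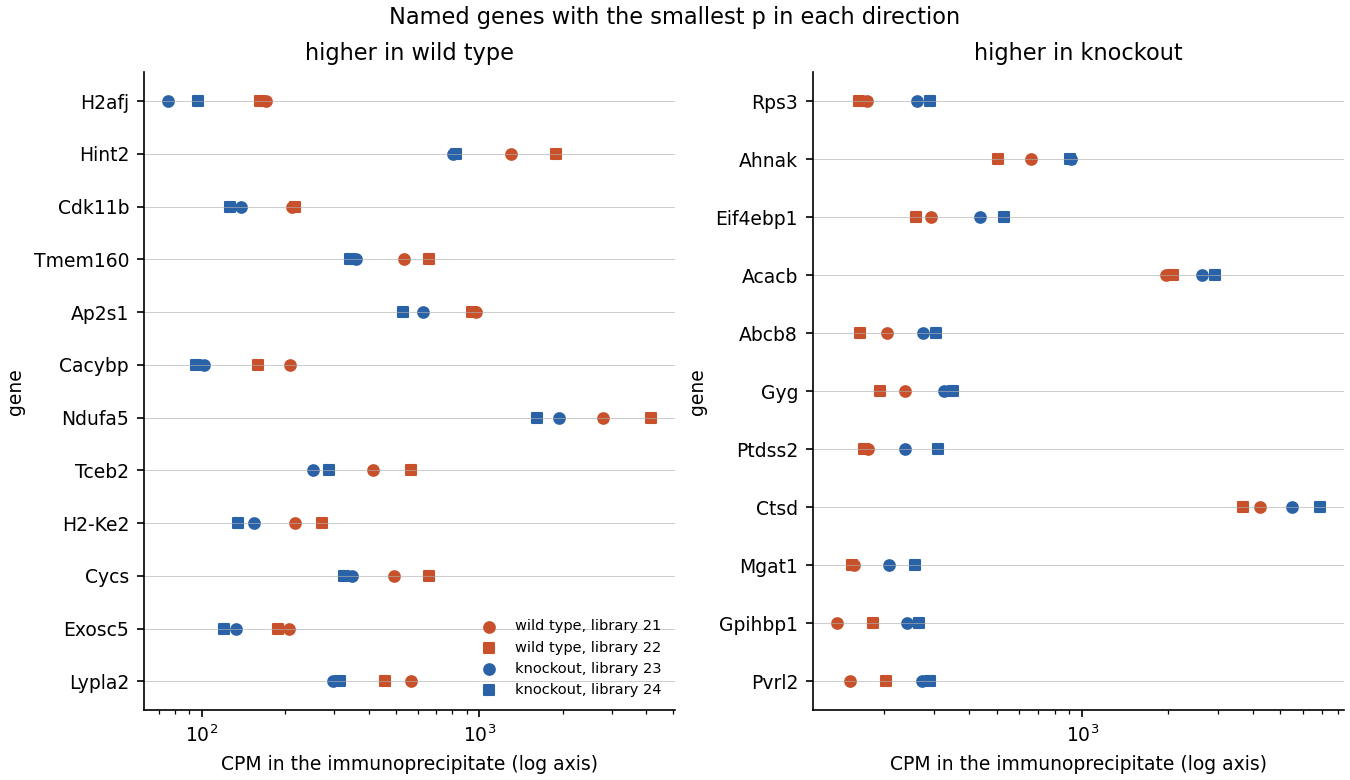
Levels in CPM (horizontal log axes) are shown for the 12 genes described as higher and the 11 described as lower in wild type (rows), with 1 point for each wild-type (21, 22) and knockout (23, 24) IMP2 immunoprecipitate. The genotypes do not overlap in any row, by the rule that chose the genes, and for H2afj the wild-type points stand at 171 and 162 CPM and the knockout points at 75.5 and 96.6 CPM.

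DESeq2 called genes that edgeR did not, and the 5 with the largest ratio in each direction included several whose libraries of 1 group differed widely. Pabpc4, which encodes a cytoplasmic poly(A)-binding protein, was at 257 and 334 CPM in wild-type and at 137 and 52.1 CPM in knockout immunoprecipitates, for a log2 ratio of 1.62 ± 0.37. The knockout mean lies under the listing level of library 22. Its total RNA was at 354 and 282 CPM in wild type and 138 and 145 CPM in knockout, for a log2 ratio of 1.17. Without library 23 the immunoprecipitate ratio was 2.46 and passed edgeR with an adjusted p of 0.00824, the one call made when any library was left out, and without library 24 it was 1.09. Cd59a, a complement regulator, was at 557 and 549 CPM against 352 and 212 CPM, with a log2 ratio of 0.97 beside 0.91 in total RNA. In both genes the knockout libraries lay below the wild-type libraries, and library 24 was the lowest.

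Rhou was at 134 and 153 CPM in wild-type and at 391 and 212 CPM in knockout immunoprecipitates, for a log2 ratio of -1.08 ± 0.31 beside -0.90 in total RNA. Here library 23 was the highest. Acsl5, a long-chain acyl-CoA synthetase, was at 254 and 171 CPM against 289 and 435 CPM, with a log2 ratio of -0.76 beside -0.59. Id1, which encodes an inhibitor of helix-loop-helix transcription factors, was at 148 and 136 CPM against 225 and 244 CPM, with a log2 ratio of -0.72 beside -0.59. The edgeR adjusted p was 0.165 for Rhou, 0.21 for Acsl5 and 0.162 for Id1.

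Subunits of the respiratory chain, the protein complexes of the inner mitochondrial membrane that pass electrons to oxygen, were more often above than below 0 in the immunoprecipitates. Of 64 listed subunits of the chain and ATP synthase, 42 had a log2 ratio above 0, with a median of 0.10, against 0.01 over all genes. This median was 0.039 with upper-quartile scaling, 0.045 with library size alone and 0.060 without library 22. Their median in total RNA was -0.09. At an unadjusted p under 0.05 there were 11 higher and 2 lower, beside 10.3% and 7.4% of all genes, and DESeq2 called 5 higher and 1 lower, beside 5.05% and 2.78%. The complexes differed in these values. A separate table with an IgG control, described below, holds 82 genes of this list, of which 64 are listed here.

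Of 33 complex I subunits, 24 were above 0, with a median log2 ratio of 0.16 and a range of -0.38 to 0.96. Both wild-type libraries were above both knockout libraries for 15 of the 33, and both were below for 2, beside 26.9% and 24.3% of all genes. At an unadjusted p under 0.05 there were 7 higher and 1 lower (10.3% and 7.4% of all genes), and DESeq2 called 3 higher and 0 lower (5.05% and 2.78%). The summed level of complex I was 53308 and 63602 CPM in the wild-type immunoprecipitates and 48568 and 47043 CPM in the knockout ones. In total RNA the order of these sums was different, with 61389.8 and 65074 CPM in wild type and 67024 and 61029.6 CPM in knockout. Over the 4 pairings of a wild-type with a knockout library, the median ratio of complex I ran from 0.08 to 0.25, with the higher values in the pairings of library 22.

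Among complex I subunits, Ndufb7 was at 3828 and 5981 CPM against 2963 and 2663 CPM, with a log2 ratio of 0.80 ± 0.22 beside 0.10 in total RNA. Ndufa3 was at 2140.3 and 3679 CPM against 1903 and 1472 CPM, with a log2 ratio of 0.78 ± 0.30 beside 0.23. In both, as in Ndufa5, library 22 was well above library 21. Ndufa10 had the lowest ratio, -0.38, with 818 and 697 CPM against 916 and 1059 CPM.

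All 7 listed subunits of complex III, which passes electrons from ubiquinol to cytochrome c, were above 0, with a median log2 ratio of 0.34 and a range of 0.01 to 0.54. The total RNA median of the same subunits was -0.04. Uqcrq was at 6141 and 7759 CPM against 4927 and 4637 CPM, with a log2 ratio of 0.54 beside 0.02 in total RNA, and was the complex III subunit that DESeq2 called. Summed over the 7 subunits, the level was 29579.7 and 32766 CPM in wild-type and 25247 and 24189.9 CPM in knockout immunoprecipitates. For 4 of the 7 subunits both wild-type libraries were the higher ones, beside 26.9% of all genes.

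Of 12 subunits of complex IV, the cytochrome oxidase, 7 were above 0 with a median log2 ratio of 0.04, and 0 were at an unadjusted p under 0.05 by edgeR or called by DESeq2. Of 10 subunits of ATP synthase, 4 were above 0, and the range was -0.45 to 0.75. At the upper end Atp5k, the small membrane subunit e, was at 2721 and 4714 CPM against 2416 and 1997 CPM, with a log2 ratio of 0.75 beside -0.06 in total RNA. At the lower end Atp5c1, the central stalk subunit gamma, was at 284 and 262 CPM against 353 and 394 CPM, with a log2 ratio of -0.45 beside -0.36. Subunits of the same enzyme thus stood on opposite sides of 0.

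**Figure D3:**
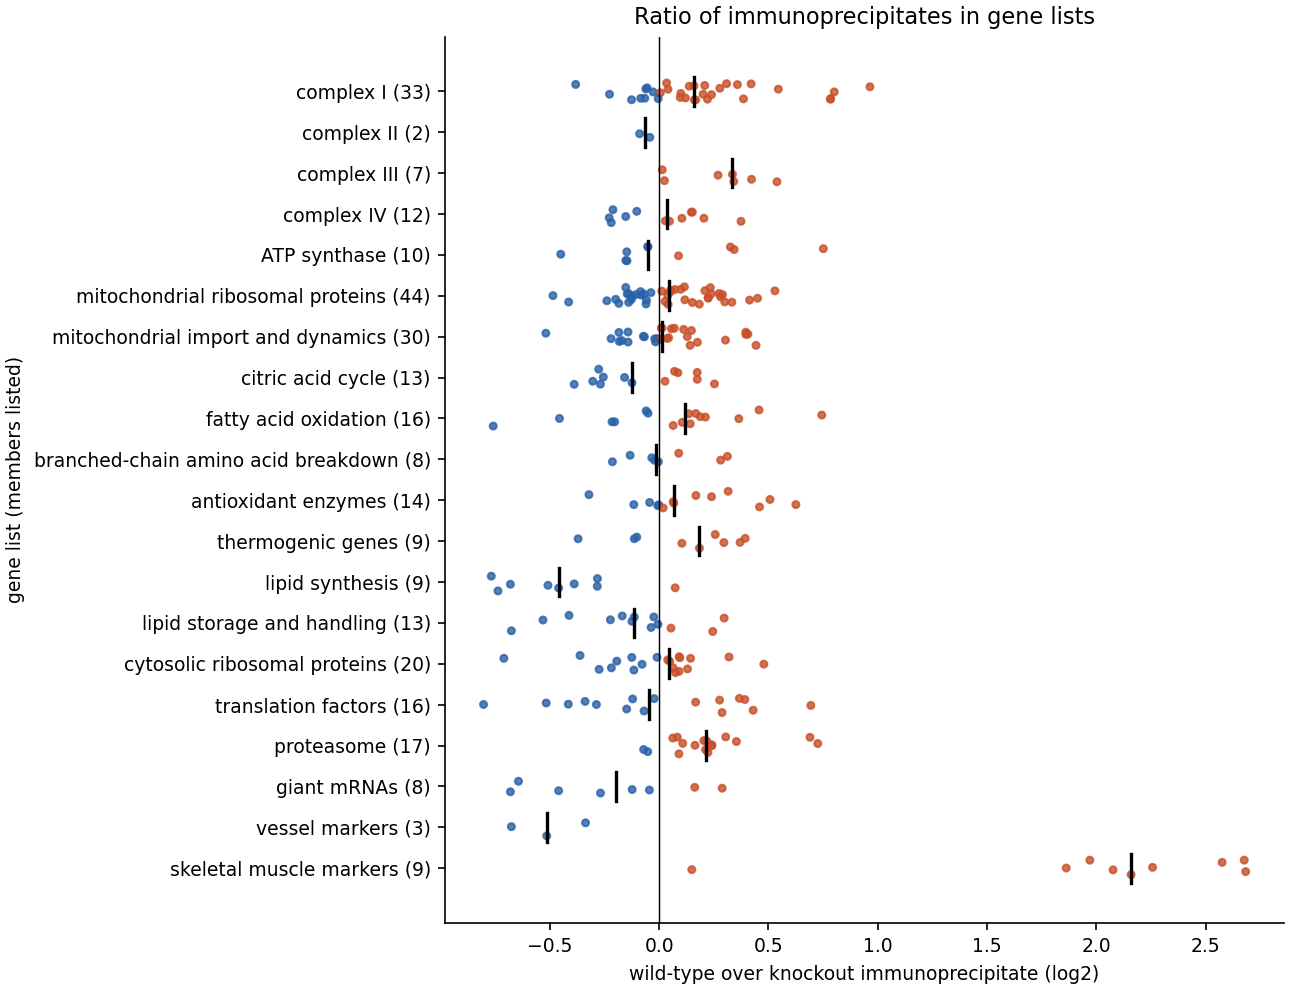
Each point is a gene of a list (rows), placed by its log2 ratio of wild-type over knockout IMP2 immunoprecipitate (horizontal axis), with the list's median as a black bar and points coloured by the side of 0 on which they lie. Muscle markers stand far to the right with a median of 2.16, and complex III subunits are all above 0. Lipid synthesis genes lie mostly below 0 with a median of -0.46 (-0.02 to -0.63 over single pairings of libraries).

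The proteasome, which degrades ubiquitin-tagged proteins, had 15 of 17 listed subunits above 0, with a median log2 ratio of 0.21 beside -0.08 in total RNA. These 17 are the listed part of the 45 genes of this list in a separate table with an IgG control, described below. The lower edge of the listing limits ratios that are lower in immunoprecipitates than in total RNA, so the contrast of the medians depends on the listing. At an unadjusted p under 0.05 there were 2 higher and 0 lower, and the share of higher genes is near the 10.3% of all genes. DESeq2 called 2 higher and 0 lower, beside 5.05% and 2.78% of all genes. Psmd4, a ubiquitin receptor of the proteasome, was at 964 and 1455 CPM against 797 and 663 CPM, with a log2 ratio of 0.73 beside 0.37 in total RNA. Psmb3, a subunit of the core particle, was at 135 and 239 CPM against 116 and 112 CPM, with a log2 ratio of 0.69 beside 0.04, and its knockout mean lies under the listing level of library 22. Summed proteasome levels were 5381 and 6750.0 CPM in wild-type and 4979 and 4992 CPM in knockout immunoprecipitates. The median of the list was 0.11 and 0.05 in the pairings of library 21 and 0.35 and 0.25 in those of library 22.

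Proteins of the mitochondrial ribosome, which translates the mitochondrial genome, had 26 of 44 genes above 0 and a median log2 ratio of 0.05, which became -0.01 with scaling by the upper quartile or by library size alone. There were 5 higher and 1 lower at an unadjusted p under 0.05, where the share of higher genes is near the 10.3% of all genes. Mrpl54 was at 402 and 418 CPM against 284 and 284 CPM, with a log2 ratio of 0.53 ± 0.15 beside -0.11 in total RNA. Mrpl12 was at 3673 and 4084 CPM against 2962 and 2859.8 CPM, with a log2 ratio of 0.41 beside 0.07. Mrps24 stood at the other end, with a log2 ratio of -0.49 beside -0.67.

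Of 20 listed proteins of the cytosolic ribosome, 11 were above 0, and the table with IgG holds 61 genes of this list. Among the 20, 1 was higher and 3 were lower at an unadjusted p under 0.05, beside 10.3% and 7.4% of all genes. Rplp1, a protein of the ribosomal stalk, was at 1783 and 1612 CPM against 1364 and 1072 CPM, with a log2 ratio of 0.48. Rps3, described above, had the lowest ratio of the list, -0.71. The ribosomal protein genes therefore did not stand on one side of 0.

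Translation factors were spread in the same way, with 7 of 16 above 0 and a median log2 ratio of -0.05, which was -0.13 without library 21. Eif2b4, a subunit of the exchange factor for eIF2, was at 299 and 387 CPM against 229 and 193 CPM, with a log2 ratio of 0.69. Eif3f, a subunit of the initiation factor eIF3, was at 306 and 255 CPM against 411 and 393 CPM, with a log2 ratio of -0.52. Tufm, the mitochondrial elongation factor Tu, was at 348 and 351 CPM against 259 and 260.0 CPM, with a log2 ratio of 0.43 beside 0.00 in total RNA. Its values within each genotype were almost equal.

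Other mitochondrial lists had medians between -0.12 and 0.01. Of 30 genes for mitochondrial import, chaperones, proteases and dynamics, 18 were above 0 with a median log2 ratio of 0.01 (-0.044 with upper-quartile scaling), and the extremes included Clpp, a matrix protease, at 0.41 and Timm17a, part of the inner membrane import channel, at -0.52. Of 13 genes of the citric acid cycle and pyruvate metabolism, 6 were above 0 with a median of -0.12 (-0.032 without library 24) and a range of -0.39 to 0.25. None of these 13 was at an unadjusted p under 0.05 by edgeR or called by DESeq2. Of 8 genes of branched-chain amino acid breakdown, 3 were above 0, and Bckdha, the catalytic subunit of the committing dehydrogenase, had a log2 ratio of 0.28.

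Fatty acid oxidation had 10 of 16 genes above 0 with a median log2 ratio of 0.12 (0.058 with upper-quartile scaling), and 3 higher and 2 lower at an unadjusted p under 0.05, beside 10.3% and 7.4% of all genes. Etfb, the beta subunit of the flavoprotein that takes electrons from acyl-CoA dehydrogenases, was at 8238 and 12983 CPM against 6719 and 5949.7 CPM, with a log2 ratio of 0.74 beside 0.23 in total RNA. Etfdh, the enzyme that receives electrons from that flavoprotein, was at 246 and 212 CPM against 305 and 325 CPM, with a log2 ratio of -0.46. Partners of this electron transfer step thus lay on opposite sides of 0, with no overlap between the genotypes in either gene.

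Antioxidant enzymes had 9 of 14 genes above 0, with a median log2 ratio of 0.07, which was 0.0069 with upper-quartile scaling, 0.14 without library 22 and 0.15 without library 23. Txnrd2, the mitochondrial thioredoxin reductase, was at 548 and 724 CPM against 392 and 431 CPM, with a log2 ratio of 0.63 ± 0.16 beside 0.16 in total RNA. Gstm1, a glutathione transferase, was at 956 and 969 CPM against 759 and 641 CPM, with a log2 ratio of 0.46 beside 0.48. Sod1, the cytosolic superoxide dismutase, was on the other side of 0, with a log2 ratio of -0.32.

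Ucp1 (chromosome 8, 83290348 to 83298456) was at 6693 and 10859.7 CPM in wild-type and at 5559 and 8734 CPM in knockout immunoprecipitates, and the groups overlapped. Its log2 ratio was 0.30 ± 0.27 with an edgeR adjusted p of 0.582. The ratio of single libraries ran from -0.38 for library 21 over 24 to 0.97 for library 22 over 23, and the fitted ratio was -0.094 without library 22 and -0.030 without library 23. In total RNA, Ucp1 was at 5194 and 5488 CPM in wild type and 5979 and 5758 CPM in knockout. Total RNA was thus slightly lower in wild type, with a log2 ratio of -0.14.

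Of 9 listed thermogenic genes, 6 were above 0, with a median log2 ratio of 0.18, and the extremes were Pank1, which makes the coenzyme A precursor, at 0.39 and Letmd1, a mitochondrial protein of brown fat, at -0.37. This median is the ratio of Dio2 (0.18 ± 0.98), and it was -0.01 without library 22 and -0.03 without library 23. Cidea, a lipid droplet protein, had 9883 and 10499.8 CPM against 11312 and 10742 CPM, for a log2 ratio of -0.11. Dio2, the deiodinase that activates thyroid hormone, had 498 and 392 CPM against 90.1 and 697 CPM, so that the knockout values enclosed the wild-type values. Its total RNA showed the same order, with 371 and 349.7 CPM against 58.3 and 523 CPM.

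Genes of lipid synthesis and storage lay mostly below 0. Of 22 listed genes, 4 were above 0, with a median log2 ratio of -0.25 beside -0.21 in total RNA, and at an unadjusted p under 0.05 there were 0 higher and 7 lower, beside 10.3% and 7.4% of all genes. DESeq2 called 0 higher and 3 lower, beside 5.05% and 2.78%. Synthesis genes had 1 of 9 above 0 with a median of -0.46, and storage and handling genes had 3 of 13 above 0 with a median of -0.11. The synthesis median was -0.02 and -0.23 in the pairings of knockout library 23 and -0.57 and -0.63 in those of library 24.

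Fasn, fatty acid synthase, was at 23337 and 18605 CPM in wild-type and at 21682 and 45529 CPM in knockout immunoprecipitates, for a log2 ratio of -0.68 with an edgeR adjusted p of 0.431. Library 24 alone was high, and library 23 lay between the wild-type values. Total RNA held 28466 and 26272 CPM in wild type and 28006 and 54736 CPM in knockout, where again 1 knockout library, number 19, was high. Acly, which makes cytosolic acetyl-CoA, had the same form, with 1599 and 891 CPM against 1423 and 2829 CPM. Slc25a1, the mitochondrial citrate carrier, was at 2005 and 1567 CPM against 2008 and 3952 CPM. Summed lipid synthesis genes were at 45738 and 39810.0 CPM against 44849 and 78644 CPM.

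Smaller differences with less spread within a genotype were seen for Mlxipl, which encodes the carbohydrate-responsive factor ChREBP, at 361 and 321 CPM against 462 and 509.8 CPM (log2 ratio -0.51 ± 0.17 beside -0.39 in total RNA). Plin5, a droplet protein at contacts with mitochondria, was at 384 and 345 CPM against 466 and 505 CPM (-0.41 beside -0.29). G0s2, an inhibitor of the lipase that opens triglyceride breakdown, was at 1091 and 719 CPM against 1412 and 1208 CPM (-0.53 beside -0.55). In these genes both knockout libraries were above both wild-type libraries. The wild-type libraries of G0s2 lay far apart, and its ratio ran from -0.89 to -0.26 with 1 library left out. The edgeR adjusted p was 0.183 for Mlxipl, 0.21 for Plin5 and 0.237 for G0s2.

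Of 8 listed mRNAs chosen for encoding very large proteins, 2 were above 0, with a median log2 ratio of -0.20 (-0.33 without library 22) beside -0.07 in total RNA. At an unadjusted p under 0.05, 0 were higher and 2 were lower, beside 10.3% and 7.4% of all genes. Those with non-overlapping groups included Ahnak and Hspg2, the basement membrane proteoglycan perlecan. Hspg2 was at 545 and 707 CPM against 784 and 721 CPM, so the nearest libraries of the genotypes were close. Acacb and Fasn, described with the lipid genes, belong to this list as well.

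Most of the largest ratios were those of skeletal muscle genes, whose values stood apart in single libraries. All 9 listed members had a log2 ratio above 0, with a median of 2.16 in the immunoprecipitates and 1.98 in total RNA. Tcap (chromosome 11, 98383811 to 98384953) was at 195 and 1579 CPM in wild-type and at 47.4 and 229 CPM in knockout immunoprecipitates. Its total RNA was at 215 and 1393 CPM in wild type and at 58.7 and 250.1 CPM in knockout. In both kinds of RNA 1 wild-type library was far above the others and 1 knockout library was far below, and the genotypes overlapped.

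Ckm, the muscle creatine kinase, was at 249 and 657 CPM against 33.2 and 119 CPM, with a log2 ratio of 2.58 ± 0.87. Acta1, skeletal actin, was at 177 and 456 CPM against 38.3 and 136 CPM, with a log2 ratio of 1.86 ± 0.85. Tnni2, a fast-fibre troponin, was at 199 and 1341 CPM against 51.4 and 189.7 CPM, with a log2 ratio of 2.68 ± 1.18. These 3 genes did not overlap between genotypes, but the edgeR adjusted p was 0.191 for Ckm, 0.293 for Acta1 and 0.279 for Tnni2. The others were Tnnt3 (2.16), Tnnc2 (1.97), Atp2a1 (2.08), Pvalb (2.26) and Des (0.15), and Des is also made by smooth muscle.

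Summed over the 9 muscle genes, the level was 2015 and 7827 CPM in wild-type and 835 and 1863 CPM in knockout immunoprecipitates. In total RNA the sums were 3221 and 11188 CPM in wild type and 1059 and 2978 CPM in knockout. The sum in wild-type library 21 was close to that in knockout library 24, and the median ratio of the list between these 2 libraries was 0.09. Where the amount of RNA from a cell type differs between bulk libraries, more cells and more RNA per cell cannot be told apart. The part of muscle RNA in the results for other genes was not tested.

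**Figure D4:**
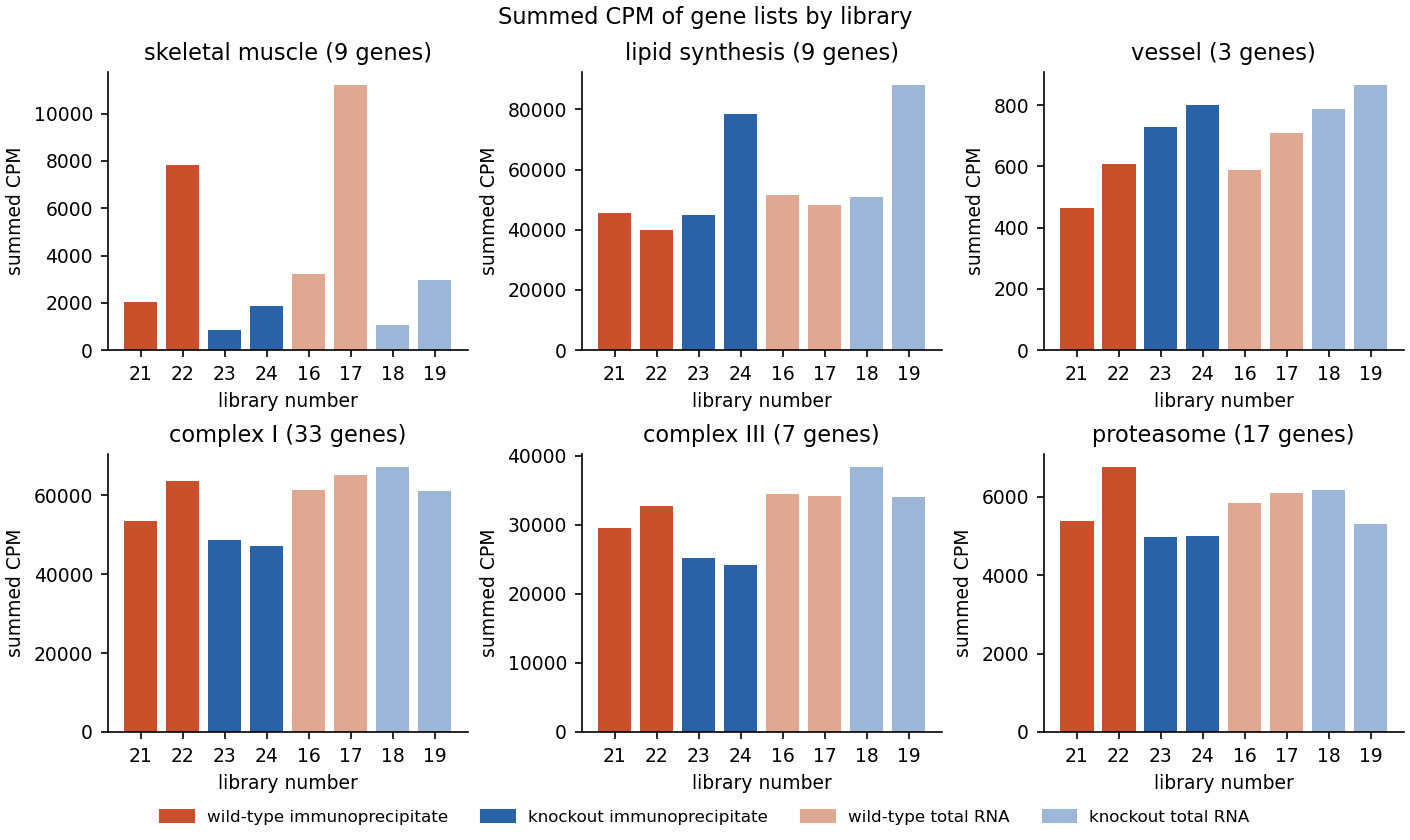
Summed CPM of 6 gene lists (bars, vertical axes from 0) is shown in each wild-type (21, 22) and knockout (23, 24) immunoprecipitate and each total RNA library of the knockout table. Muscle markers are highest in wild-type library 22 (7827 CPM) and lipid synthesis genes are highest in knockout library 24 (78644 CPM), and each has 1 high total RNA library of the same genotype.

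Markers of other cells were few. All 3 listed vessel genes, of 20 in the table with IgG, were lower in both wild-type immunoprecipitates, as were 24.3% of all genes. Their log2 ratios were -0.68 for the endothelial gene Gpihbp1, -0.51 for the endothelial gene Egfl7 and -0.34 for the pericyte gene Cspg4. Their sum was 465 and 608 CPM in wild-type and 727 and 802 CPM in knockout immunoprecipitates, and in total RNA it was 588 and 708 CPM against 788 and 865 CPM. Of the 2 listed fibroblast and matrix genes 1 was above 0. The collagen gene Col6a1 was at 139.7 and 159 CPM against 85.8 and 96.1 CPM, with a log2 ratio of 0.71, and its knockout mean lies under the listing level of library 22. Hspg2, the other member, had a log2 ratio of -0.27 with both knockout libraries higher. S100b, the 1 listed gene of the nerve and Schwann cell list (5 genes in the table with IgG), had a log2 ratio of 0.32. The 3 listed blood cell genes, all globins, had a median log2 ratio of 0.59 beside 0.21 in total RNA, and Hbb-bs had the lowest, 0.29. Hba-a1 and Hba-a2 shared the ratio of 0.59 and had equal counts with IMP2 and with IgG, so they are not separate measurements. None of the macrophage and leukocyte markers is listed, so these cells could not be followed. Of 7 adipocyte markers 4 were above 0, with a median of 0.18 (-0.077 without library 22, -0.11 without library 23). They ran from -0.11 for Cidea to 0.50 for Retn, which encodes resistin. The list shares Ucp1, Cidea and Dio2 with the thermogenic genes, and its median is again the ratio of Dio2.

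Genes with a ratio away from 0 in the immunoprecipitates mostly had a total RNA ratio of the same sign. Across all 1189 genes, Pearson's r between the log2 ratios in immunoprecipitates and in total RNA was 0.800, Spearman's rho was 0.680, and the sign was the same for 887 genes (74.6%). Without the muscle genes r was 0.723. The ratios use separate libraries, but the labels do not say whether the same animals gave both, and the lower edge of the listing ties low ratios in immunoprecipitates to low ratios in total RNA. Over all genes tested, 49.7% were above 0 in total RNA, with a median of -0.003. Of the 123 genes higher at an unadjusted p under 0.05, 86.2% were above 0 in total RNA, where their median was 0.18. Of the 88 lower genes, 1 was above 0 in total RNA, where their median was -0.34, a count that the same edge limits. Between the total RNA libraries themselves edgeR called 0 genes, with a smallest adjusted p of 0.201, and DESeq2 called 17 higher and 18 lower.

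**Figure D5:**
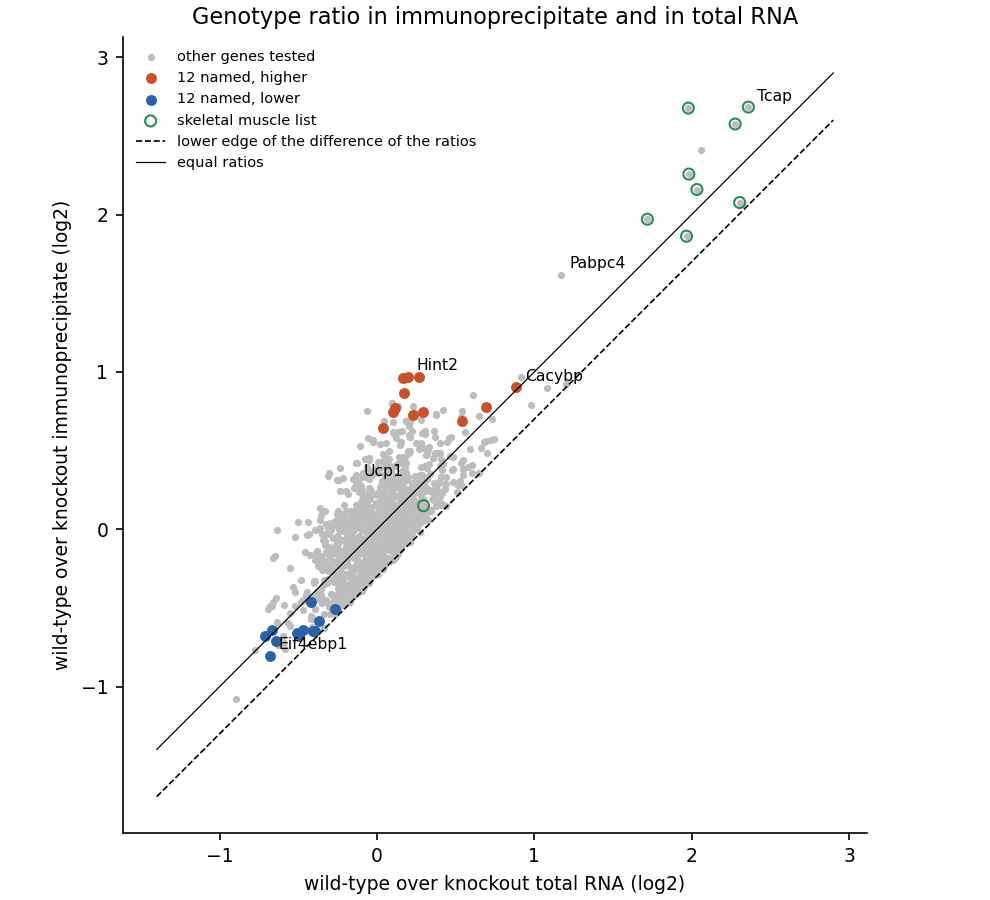
The log2 ratio of wild type over knockout in IMP2 immunoprecipitates (vertical axis) is plotted against the ratio in total RNA (horizontal axis) for 1189 genes, with a solid line for equal ratios and a dashed line at the lowest difference, -0.30. Points rise along the solid line (Pearson's r 0.800) and end sharply at the dashed line, and genes such as Hint2 and H2afj stand above it, with log2 ratios of 0.97 and 0.96 at total RNA ratios of 0.20 and 0.17.

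A separate deposited table offered another control for background, IgG, an antibody of no specific target, with 1 library for IgG and 1 for IMP2, both from wild-type mice. With 1 library of each there is no test, and 95% intervals are exact binomial intervals that cover counting error only. Over the 1189 genes, 640 (53.8%) had more CPM with the IMP2 antibody than with IgG. Of the 123 genes higher in wild-type than in knockout immunoprecipitates at an unadjusted p under 0.05, 94 (76.4%) did, and of the 88 lower genes 32 (36.4%) did. For genes that DESeq2 called, the numbers were 52 of 60 (86.7%) and 11 of 33 (33.3%). Across genes the 2 measures had a Pearson's r of 0.250 and a Spearman's rho of 0.279, so the order of genes was shared only in part.

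The log2 ratio of IMP2 over IgG was 0.75 for H2afj (interval 0.49 to 1.01), 0.66 for Hint2 (0.56 to 0.76) and 0.63 for Ap2s1 (0.50 to 0.76). It was -0.86 for Rps3 (-1.22 to -0.53) and -1.47 for Ahnak (-1.62 to -1.33). These genes had the same sign against both backgrounds. Others did not, such as Cdk11b at -0.34 (-0.55 to -0.14) and Pabpc4 at -0.30 (-0.56 to -0.06), which were higher in wild-type than in knockout immunoprecipitates but lower with IMP2 than with IgG. For Eif4ebp1 the interval included 0, at 0.09 (-0.16 to 0.34). Complex I had a median log2 ratio of 0.19 over IgG, the proteasome -0.06 and the large mRNAs -0.69.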

How the data were processed

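The deposited values are whole-number read counts per RefSeq transcript with no scaling by the authors, as the values show. The submitters' processing notes name TopHat2 2.0.8, Cufflinks 2.1.1 and mm10. How reads were counted, against which annotation, and how transcripts were picked for listing was not given in the sources used here. RNA was isolated with Trizol and a column kit, per the labels' protocols. The members, gene lists and tests were chosen with earlier results of these data known.

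Of 1579 transcripts, 117 had no symbol, and 114 of these were named by accession from a RefSeq table for GRCm38.p6, the assembly of the mm10 build, which also gave gene positions. The 3 unnamed transcripts took 8.65 to 29.2% of the listed counts per library and stayed out of library sizes and tests. Of the 1189 genes, 240 had several transcripts, and 8 matched another gene exactly in every count. No column was left unused. The IgG table, which lists 9378 genes, was used for the comparison with IgG, with CPM over the genes shared with the knockout table.

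All 8 libraries of the knockout table were fitted together by group with edgeR 4.0.16 in R 4.3.3 (TMM scaling, the filterByExpr function, under which every gene stayed, and the quasi-likelihood F test with Benjamini-Hochberg adjustment). This left 4 residual degrees of freedom. The scripts were tested on simulated data. DESeq2 1.42.0 and limma 3.58.1 (limma-voom) were alternatives, as were other scalings, other filters, fits on the immunoprecipitates or total RNA alone and leaving out each library. Chi-square divided by its degrees of freedom was 19.7 between the wild-type and 60.3 between the knockout immunoprecipitates, above the value of counting error alone. This measure grows with depth, and the knockout libraries were deeper, so the 2 values do not rank the genotypes by spread. The median absolute log2 difference per gene was 0.198 between the wild-type and 0.152 between the knockout immunoprecipitates. No correction was made for total RNA.

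Named genes were, in each direction, the 12 with the smallest p among those whose groups do not overlap (leaving out predicted genes and genes with identical counts), the 10 genes with the highest mean CPM, up to 3 members at each end of a list, every muscle gene and member of lists with up to 5 listed genes, Ucp1, and up to 5 genes per direction called by DESeq2. Some genes that the rule names are not reported here. Uqcrq, Atp5k, Mlxipl, Plin5, G0s2, Dio2 and A930016O22Rik are not named by the rule and were also printed after their values were seen.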

Additional observations from a re-analysis of the deposited data

How the results depend on the processing

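No paired analysis was possible because the wild-type and knockout groups share no replicate numbers in the labels. The calls between immunoprecipitates were 0 in each direction with edgeR in most alternatives, but DESeq2 called 60 genes higher and 33 lower, and leaving out 1 library in turn gave 0 to 1 higher (Pabpc4, without knockout library 23) and 0 lower. Total RNA had 17 higher and 18 lower by DESeq2 and 1 higher (Pabpc4) when fitted alone. Genes at an unadjusted p under 0.05 ranged with 1 library left out from 59 to 152 higher and from 41 to 123 lower, highest without library 21. With 1 library left in a group, that library is assumed to vary like the other groups. Of 86 genes described, 83 kept their sign over 18 alternatives. The exceptions, with 1 library left out, were Ucp1 (-0.094 without library 22 and -0.030 without 23, up to 0.65 without 24), Fabp4 (0.030 without 21 and 0.050 without 24, down to -0.14 without 23) and Dio2 (-0.022 without 21 and -0.68 without 23, up to 2.30 without 24). For these the cause was not tested. There were 45 described genes under an adjusted p of 0.05 in some alternative, 44 of them with DESeq2 alone. Matching each immunoprecipitate with a total RNA library, a fit chosen after seeing the data, left the calls of the difference between the ratios at 0. The lowest listed level was highest in library 22, the shallowest immunoprecipitate.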

Other observations

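Of the genes with the highest counts in the immunoprecipitates, Gpx3 and Fabp4 did not pass the test between genotypes. Gpx3, a secreted glutathione peroxidase, was at 52648 and 58639.6 CPM in wild-type and at 46790.2 and 31509.9 CPM in knockout immunoprecipitates, with a log2 ratio of 0.51 and an edgeR adjusted p of 0.486. With IMP2 over IgG its log2 ratio was 0.91 (interval 0.89 to 0.93), from 1 library each. Fabp4, the adipocyte fatty acid carrier, was at 16872 and 18826 CPM against 17129 and 19174 CPM, with a log2 ratio of -0.02.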
